A study of Mus musculus with 20 samples.

Results

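The genes described here are the protein-coding genes of mouse chromosome 14 that the authors listed as different between Ripk3-/- (KO) and wild-type (WT) AML-12 cells, with or without palmitate. There were 252 of them among the 4988 genes listed in at least one of the 2 genotype comparisons. They were taken in order of their start, after leaving out Ripk3 and Ctsb and all genes whose names begin with Rpl, Rps, Mrp, Nduf, Cox, Uqcr, Atp5 or Slc. A gene was listed when its adjusted p was below 0.05 in the authors' table, so the difference between KO and WT chose the genes, and it is given here as a description without a test of its own.

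AML-12 is an established mouse hepatocyte cell line. RNA-seq was made from 4 groups of 5 libraries each: untreated KO cells (KO_C), untreated WT cells (WT_C), KO cells given 125 µM palmitate bound to albumin for 24 h (KO_PA) and WT cells given the same (WT_PA). The labels do not state that replicate libraries are separate cultures, and the spread behind each p-value may therefore be a technical one. The number of KO clones is not stated either, and any other difference between the KO and WT lines cannot be told apart from the deletion. No group received albumin alone, and palmitate and its carrier cannot be told apart.

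Ripk3 encodes a kinase that phosphorylates Mlkl to start necroptosis, a lytic form of programmed cell death, and hepatocytes in general hold little of it. The gene lies on chromosome 14 in a stretch dense with genes, among them the proteasome activator subunits Psme1 and Psme2 and the interferon signalling factor Irf9. Chromosome 14 otherwise carries genes of many unrelated functions, including Glud1 (mitochondrial glutamate dehydrogenase), Mmp14 (a membrane-anchored collagenase), Thrb (a thyroid hormone receptor) and Tpt1 (the abundant translationally controlled tumour protein).

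The libraries held 21.2 to 30.1 M reads assigned to genes. Ripk3 itself (chr14:55784995-55788865) was at 4.66 ± 3.02 normalised counts in KO_C and 18.03 ± 5.52 in WT_C, and at 6.33 ± 3.91 in KO_PA and 21.5 ± 3.26 in WT_PA (SD, n = 5 each). The deleted bases are not stated, so the residual reads were not placed relative to them. The first KO_C library stood apart from the other 4 of its group, with a chi-square per degree of freedom of 34.4 to 47.3 over gene counts, against 2.72 to 15.04 between all other pairs of replicates in the 4 groups. Of 20 hepatocyte markers 8 were listed untreated, 3 higher (among them Trf) and 5 lower in KO (among them Apoe), and these 8 summed to 8645 to 10467 normalised counts in KO_C and 13689 to 15822 in WT_C. A partly different set of 11 was listed with palmitate, 6 higher and 5 lower, and summed to 27251 to 29886 in KO_PA and 28042 to 29438 in WT_PA. Cholangiocyte markers, 4 of 7 listed untreated with 2 higher and 2 lower, summed to 51333 to 55688 in KO_C and 43888 to 48513 in WT_C. Mesenchymal markers, 2 of 8 listed untreated, summed to 21984 to 24501 in KO_C and 20395 to 22080 in WT_C. Of 6 macrophage and leukocyte markers only Cd14 was listed, higher in KO in both conditions, with 6110 to 7297 in KO_C and 4684 to 5630 in WT_C. None of 5 endothelial markers was listed. The part of these differences in the chromosome 14 values was not tested, and in bulk RNA fewer cells of a type and less RNA per cell cannot be told apart.

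Promoter sequence showed no single layout among the genes. The 250 bases before the RefSeq start (GRCm38.p6) are shown for 4 genes that recur below: Mmp14 with the smallest listed p with palmitate, Sall2 among the genes most reduced in KO, Glud1 as an abundant gene with a typical reduction, and Acod1 as the gene most increased in KO. Each reads 5′ to 3′ on the gene's own strand, and capitals mark the letters TATAAA of the TATA box, CCAAT of the CCAAT box and GGGCGG of the GC box, on either strand.
Mmp14, chr14:54431348-54431597, plus strand: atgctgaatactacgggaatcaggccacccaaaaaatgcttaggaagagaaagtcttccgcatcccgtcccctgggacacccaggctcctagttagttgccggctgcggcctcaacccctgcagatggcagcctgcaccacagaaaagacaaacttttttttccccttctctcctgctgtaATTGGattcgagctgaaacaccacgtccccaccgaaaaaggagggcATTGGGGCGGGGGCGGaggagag
Sall2, chr14:52328671-52328920, minus strand: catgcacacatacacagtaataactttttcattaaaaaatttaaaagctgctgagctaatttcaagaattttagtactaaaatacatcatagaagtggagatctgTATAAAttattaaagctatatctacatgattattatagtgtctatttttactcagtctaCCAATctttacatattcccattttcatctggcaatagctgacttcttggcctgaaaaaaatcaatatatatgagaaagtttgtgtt
Glud1, chr14:34310477-34310726, plus strand: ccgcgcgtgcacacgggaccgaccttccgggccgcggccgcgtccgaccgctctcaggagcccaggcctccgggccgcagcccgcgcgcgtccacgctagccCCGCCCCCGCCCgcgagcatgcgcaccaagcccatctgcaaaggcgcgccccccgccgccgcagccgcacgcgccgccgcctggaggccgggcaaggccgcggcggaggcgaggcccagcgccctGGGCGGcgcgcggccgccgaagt
Acod1, chr14:103046762-103047011, plus strand: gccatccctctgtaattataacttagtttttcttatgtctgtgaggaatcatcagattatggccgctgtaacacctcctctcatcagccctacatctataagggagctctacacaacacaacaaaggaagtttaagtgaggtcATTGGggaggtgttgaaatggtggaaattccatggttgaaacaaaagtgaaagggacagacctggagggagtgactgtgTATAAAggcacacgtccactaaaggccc

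The Glud1 stretch was 82.0% G and C with 46 CpG dinucleotides, and it held 3 copies of GGGCGG. The Sall2 stretch lay at the other end, with 28.0% G and C, no CpG, 1 TATAAA and 1 CCAAT. In Mmp14 (55.2% G and C, 10 CpG) the last bases before the start held CCAAT in reverse and 2 copies of GGGCGG next to each other, the first sharing a base with the CCAAT. Acod1 (44.4% G and C, 2 CpG) had a TATAAA and a reverse CCAAT. Among the 192 of 252 genes matched in the promoter table, GGGCGG occurred on either strand in 68.2% of the 300-base windows, which add 50 bases after the start, against 35.9% over all 27025 genes and 30.2% over the 1092 chromosome 14 genes of that table. The median G and C content was 62.0% over the matched genes and 51.0% over all chromosome 14 genes. TATAAA occurred in 7.29% of the matched genes and 14.2% of all genes, CCAAT in 42.7% and 37.9%, CACGTG in 8.85% and 7.24%, and TGACTCA in 2.08% and 5.17%. The comparison sets take the first promoter of every gene, expressed or not, and the matched genes the promoter nearest the deposited gene start. These shares are therefore not like for like, and whether they mark expressed genes in general was not tested. The 180 matched genes that were lower in KO and the 12 that were higher had similar median G and C contents of 62.2% and 61.7%.

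Nearly all of the listed chromosome 14 genes were lower in KO cells, and most of them by a similar small amount. In untreated cells 193 were listed, 182 lower and 11 higher in KO. With palmitate 236 were listed, 221 lower and 15 higher. Over all tested genes the authors listed 18.0% untreated, with 8.88% lower and 9.09% higher, and 24.6% with palmitate, with 12.3% lower and 12.3% higher. The median log2 fold change of the listed chromosome 14 genes was -0.24 untreated and -0.23 with palmitate, which leaves KO at 84.8% and 85.0% of the WT level. Over every listed gene of the genome, protein-coding or not, the median was 0.10 untreated and 0.06 with palmitate. Over all listed protein-coding genes with the same names left out it was -0.12 and -0.10.

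The reductions were narrow in spread, as on some other chromosomes, and the listing itself leaves out the smallest changes. Quartiles of the lower genes ran from -0.33 to -0.20 untreated and from -0.32 to -0.18 with palmitate on the log2 scale, beside a median standard error per gene of 0.053 and 0.046. Lower genes of all other chromosomes together ran from -0.45 to -0.16 untreated and from -0.34 to -0.13 with palmitate. Those of chromosome 18 alone ran from -0.26 to -0.15 and from -0.23 to -0.12. Of the 193 genes listed untreated, 170 had a log2 fold change between -0.5 and -0.1, and with palmitate 203 of 236 did. Values of -0.5 or lower were found for 11 genes untreated and 15 with palmitate. The 5 KO and 5 WT libraries did not overlap for 143 of the 193 genes untreated (74.1%) and 187 of 236 with palmitate (79.2%), against 57.0% and 70.5% of all listed genes.

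**Figure D1:**
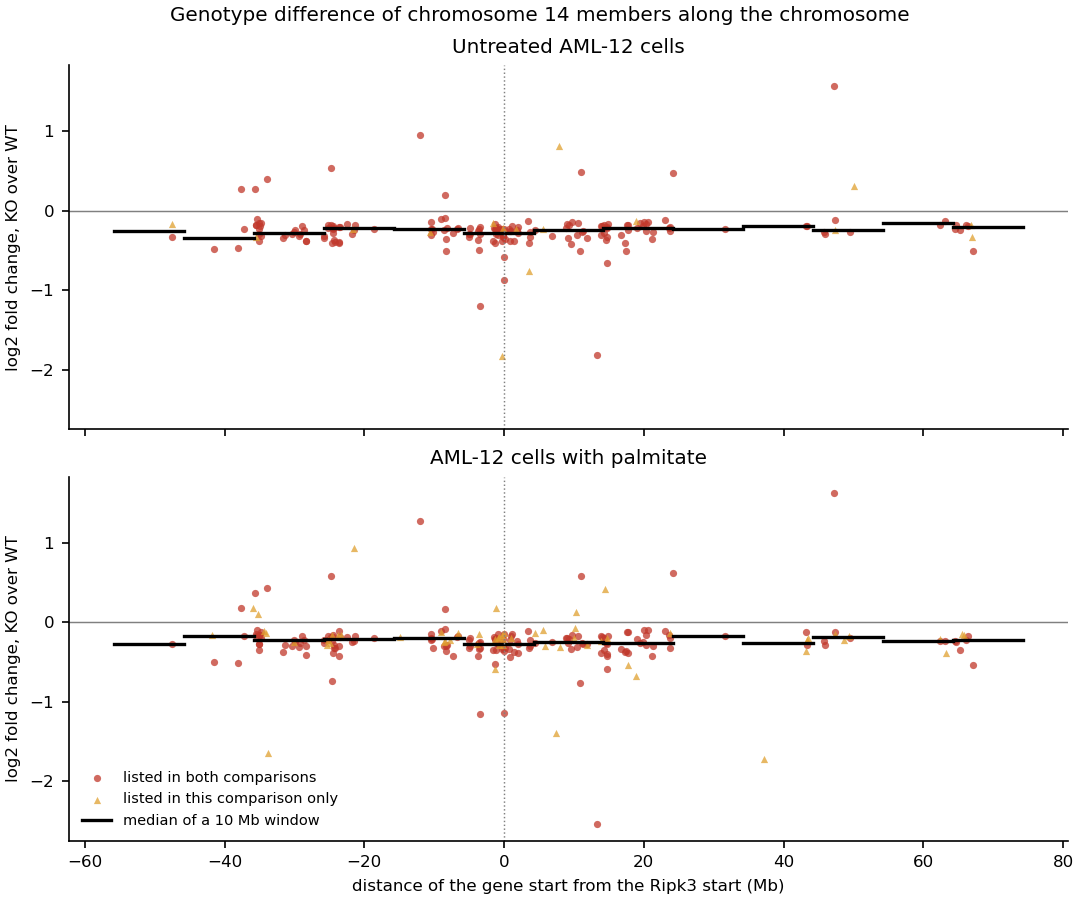
Each point is a listed chromosome 14 gene, placed by the distance of its start from the Ripk3 start in Mb, with its log2 fold change of KO over WT on the vertical axis, in untreated cells above and with palmitate below. Black bars are medians of 10 Mb windows, some of them of 1 or 2 genes, and in all 13 windows of both panels they lie below 0, between -0.35 and -0.16.

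The same downward shift was seen along the chromosome and not in one stretch of it. In windows of 10 Mb the median log2 fold change ran from -0.35 to -0.16 untreated and from -0.28 to -0.17 with palmitate. Some of these medians rest on 1 or 2 genes. From 0 to 10 Mb there were 2 untreated and 1 with palmitate, and from 80 to 90 Mb 1 in each. From 90 to 100 Mb and from 110 to 120 Mb there were 2 each untreated. The window from 50 to 60 Mb, which holds Ripk3, had the most genes, 65 of 210 annotated ones, and 52 of 52 were lower untreated and 59 of 60 with palmitate. Its medians were -0.28 and -0.27. The window from 110 to 120 Mb, near the far end, had medians of -0.16 untreated and -0.24 with palmitate. Directions were more mixed from 10 to 20 Mb, where 1 of 4 genes was higher in KO untreated and 2 of 6 with palmitate, with medians of -0.35 and -0.17, and from 100 to 110 Mb, where 2 of 7 were higher untreated and 1 of 8 with palmitate. The first 10 Mb held 113 annotated protein-coding genes but only 2 listed ones, whereas 31 of 71 were listed between 20 and 30 Mb. Genes starting before and after Ripk3 had medians of -0.25 and -0.23 untreated and of -0.23 and -0.24 with palmitate.

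Other chromosomes gave a different balance, with 1 partial exception. The listed protein-coding genes elsewhere, with the same names left out, were lower in KO in 50.3% of 2215 genes untreated and 53.0% of 3314 with palmitate, and their median log2 fold change was -0.09 in both. Chromosome 9 came nearest to chromosome 14, with 92.4% and 89.3% of its listed genes lower and a median of -0.19 in both conditions. Chromosome 10 followed with 69.2% and 72.6% lower. Spread differed as well: the log2 fold changes of chromosome 14 genes had an SD of 0.30 untreated and 0.34 with palmitate, against 0.74 and 0.67 elsewhere. Changes of at least 1 in either direction made up 2.07% and 3.39% of the chromosome 14 genes and 9.03% and 7.03% of the others. Single chromosomes came near these values. Chromosome 11 had SDs of 0.44 and 0.37, with 4.35% and 2.46% of its genes past 1. On chromosome 3 these shares were 5.0% and 2.55%, so with palmitate both lay below chromosome 14. Of the annotated genes of chromosome 14, 21.9% were listed untreated and 26.7% with palmitate, against 10.9% and 16.2% of those on other chromosomes together. Next after chromosome 14 in both conditions came chromosome 9, with 19.1% untreated and 26.3% with palmitate, so with palmitate the shares were nearly equal. Since the listing rests on the same difference, these shares carry no test.

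**Figure D2:**
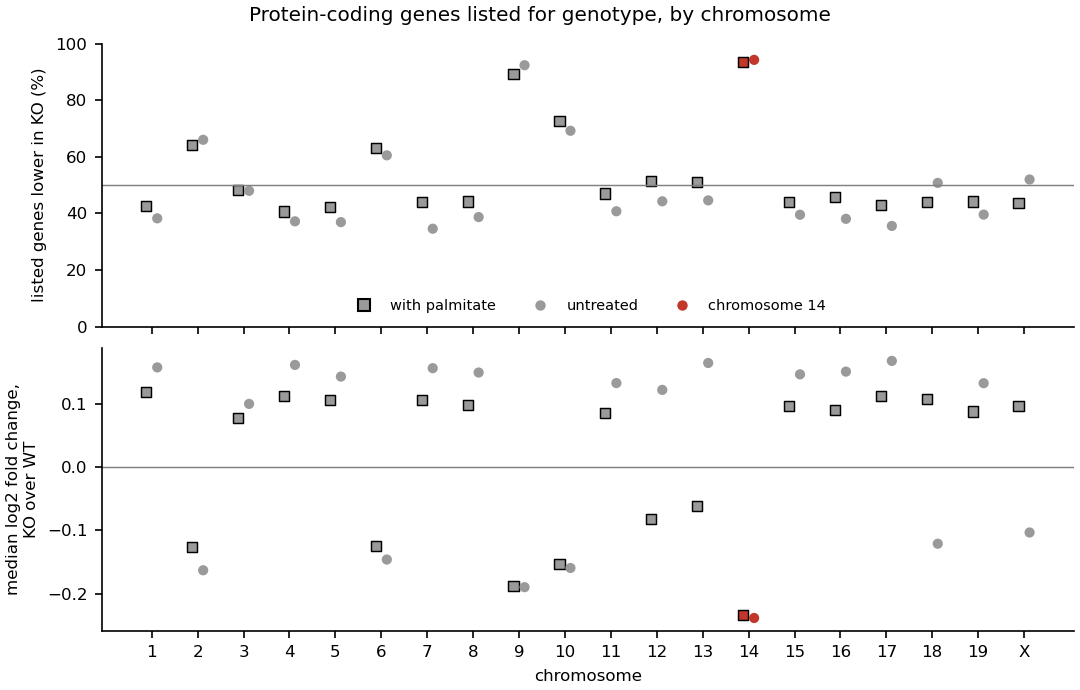
For each chromosome the upper panel gives the percentage of listed protein-coding genes that were lower in KO and the lower panel their median log2 fold change of KO over WT, with squares for palmitate and circles for untreated cells. Chromosome 14 (red) lies at 93.6% with palmitate and 94.3% untreated, with chromosome 9 next at 89.3% and 92.4%.

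The shift was present in each KO library. The genes were chosen by the difference between these same libraries, so the values describe its evenness and are no separate support. Relative to the WT mean, the median of the chromosome 14 genes lay between -0.28 and -0.22 (log2) in the 5 KO_C libraries and between -0.01 and 0.01 in the 5 WT_C libraries. With palmitate it lay between -0.24 and -0.22 in KO_PA and between 0.00 and 0.01 in WT_PA. In every KO_C library 93.8% to 95.3% of the genes were below their WT mean. The genes took 1.71% ± 0.011 of the assigned reads in KO_C and 1.98% ± 0.015 in WT_C, and 1.97% ± 0.013 in KO_PA and 2.24% ± 0.010 in WT_PA (SD, n = 5 each), where the 2 conditions sum over their own listed genes. Listed genes of other chromosomes had library medians between -0.05 and -0.02 in KO_C and between -0.07 and -0.05 in KO_PA.

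**Figure D3:**
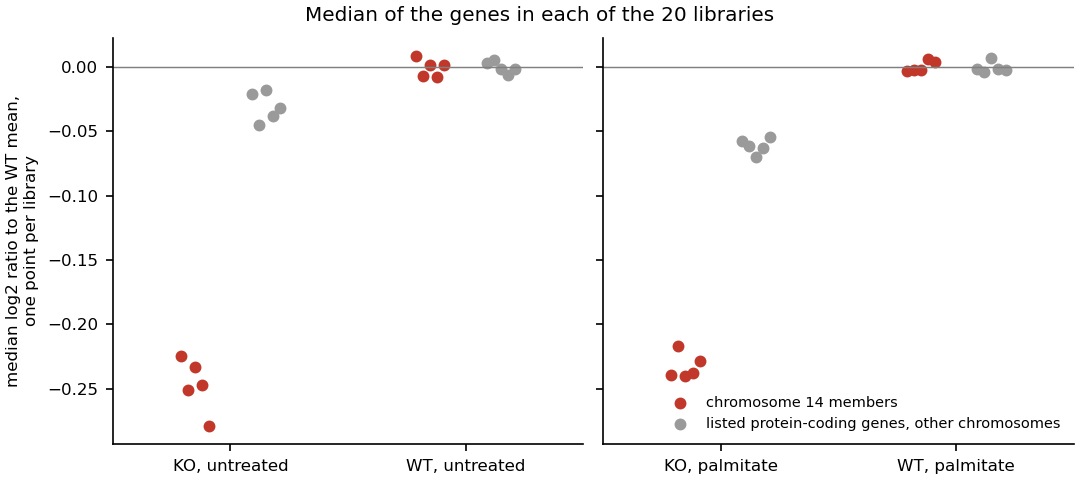
Each point is 1 library, and its height is the median log2 ratio to the WT mean over the listed chromosome 14 genes (red) or the listed protein-coding genes of other chromosomes (grey). The genes were chosen by the difference between these same libraries. The 5 red points of untreated KO cells lie between -0.28 and -0.22 and those of untreated WT cells between -0.01 and 0.01.

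The closest neighbours of Ripk3 were lower in KO wherever they were listed. Of 33 genes in a list of its neighbourhood, 20 were listed in at least one condition: 14 untreated and 19 with palmitate, all lower, with medians of -0.31 and -0.28. Over all listed chromosome 14 genes 94.3% and 93.6% were lower. Psme1 (chr14:55578123-55581529), a subunit of the PA28 proteasome activator, had 2380.4, 2341, 2132, 2087 and 2449 normalised counts in KO_C, against 2752, 2684, 3002, 2686 and 2678 in WT_C. It had 1914, 1921, 1941, 1953 and 2027 in KO_PA, against 2235, 2214, 2298, 2301 and 2296 in WT_PA. Neither pair of groups overlapped, and the log2 fold changes were -0.28 and -0.22. Its exons overlap those of Emc9 on the other strand, and the strand setting of the counting is not given in the sources used here, so reads of the pair may be mixed.

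On the far side of Ripk3, Nfatc4 (chr14:55823144-55833943), a calcineurin-regulated transcription factor, showed the largest reduction of the neighbours in both conditions. It had 45.8, 30.9, 36.8, 25.1 and 49.6 normalised counts in KO_C and 59.9, 64.4, 70.5, 78.6 and 73.4 in WT_C (log2 fold change -0.88, SE 0.18). With palmitate it had 28.6, 40.8, 20.2, 31.0 and 30.9 in KO_PA and 63.2, 70.7, 77.3, 68.7 and 50.3 in WT_PA (-1.14, SE 0.17). Every KO library was below every WT library of its condition. Cideb (chr14:55754050-55758458), which loads lipid onto very-low-density lipoproteins in liver, had 182, 231, 224, 175 and 174 in KO_C, against 269, 272, 305, 335 and 303 in WT_C. It had 209.6, 211, 188, 232 and 202 in KO_PA, against 278, 266, 287, 240.0 and 271 in WT_PA. The groups were apart in both conditions, with log2 fold changes of -0.59 (SE 0.10) and -0.36 (SE 0.08); Cideb shares exonic bases with Nop9 on the other strand.

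Some other neighbours were also below the chromosome's median of -0.24 untreated and -0.23 with palmitate, and some were not. Smaller reductions than the median were found for Dhrs1, with -0.228 untreated and -0.153 with palmitate. Nop9, listed with palmitate only, had -0.139. Khnyn, a KH-domain protein that works with the antiviral factor ZAP in human cells, had 730.1, 696, 771, 719 and 716 normalised counts in KO_C, against 876, 934, 840.4, 981 and 1040.5 in WT_C. It had 779, 765, 698, 772 and 722 in KO_PA, against 955, 864, 902, 963 and 981 in WT_PA, so that the groups were apart in both. Irf9, the DNA-binding subunit of the interferon-activated ISGF3 complex, had log2 fold changes of -0.33 untreated and -0.31 with palmitate. Rnf31, the catalytic subunit of the linear ubiquitin ligase, stood at -0.32 and -0.30, and the short-chain dehydrogenase gene Dhrs4 at -0.38 and -0.34. Neighbours in the list without a listing in either condition included Psme2, Adcy4, Nedd8 and Rabggta. Their values are not in the genotype tables. Psme2 was listed for palmitate in both genotypes, which gave it counts in every library. Averaged over both conditions, its log2 fold change of KO over WT was -0.09 (SE 0.06, edgeR adjusted p 0.228).

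Genes of metabolism followed the same course. Of 28 genes in a list of mitochondrial and intermediary metabolism, 17 were listed. Untreated 14 were lower and 1 higher, and with palmitate 13 lower and 1 higher, with medians of -0.21 and -0.23. The shares lower are near those over all listed chromosome 14 genes, 94.3% and 93.6%. For this and the other lists, 28.5% of the 883 annotated chromosome 14 genes, expressed or not, were listed in either condition. Glud1 (chr14:34310727-34345265), which interconverts glutamate and α-ketoglutarate, had 18973, 18999, 19016, 20533 and 19484 normalised counts in KO_C, against 23704, 23553, 22923, 22669 and 22139 in WT_C. With palmitate it had 19212, 20402, 19866, 20107 and 20287 in KO_PA, against 23272, 23947, 23760.4, 23438 and 23159 in WT_PA. Every KO library lay below every WT library of its condition, with log2 fold changes of -0.25 (SE 0.04) and -0.24 (SE 0.02). Tkt, the transketolase of the pentose phosphate pathway, averaged 14747 ± 744 in KO_C and 17089 ± 463 in WT_C, and 14613 ± 448 in KO_PA and 17113 ± 259 in WT_PA (SD, n = 5 each). Larger reductions were found for Timm23, a core subunit of the inner membrane import channel, with log2 fold changes of -0.39 and -0.43, and for Btd (biotinidase) with -0.40 and -0.32. The single increase was Comtd1, a methyltransferase-domain gene whose exons overlap those of Vdac2 on the other strand, with 0.40 and 0.43.

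Listed genes of the ubiquitin, folding and traffic lists were lower in KO, apart from a pair in the ubiquitin list, and so was Atg14. Atg14, a subunit of the PI3-kinase complex that starts autophagosomes, had 375, 401, 367, 366 and 349.8 normalised counts in KO_C, against 555, 542, 505, 531 and 504 in WT_C. It had 380.3, 332, 367, 378 and 385 in KO_PA, against 465, 411, 446, 469.5 and 484 in WT_PA. The groups were apart in both, with log2 fold changes of -0.50 and -0.30. Among ubiquitin and proteasome genes, 13 of 20 were listed, 7 lower untreated, and 11 lower and 2 higher with palmitate. The 2 higher ones were Psmb5, a catalytic subunit of the proteasome, at 0.17, and Usp54, of the ubiquitin-specific peptidase family, at 0.10. In the list of folding and traffic genes, 17 of 22 were listed, 13 untreated and 16 with palmitate, all lower, with a median of -0.18 in both. The shares over all listed chromosome 14 genes were 94.3% and 93.6% lower. The mitophagy receptor gene Bnip3l had log2 fold changes of -0.27 and -0.26.

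Genes of the cell cycle, DNA repair and chromatin were lower in KO without exception among those listed. This is near the share over all listed chromosome 14 genes, 94.3% untreated and 93.6% with palmitate. The cell cycle, repair and chromatin genes numbered 22 of 30 in the list, 14 untreated and 22 with palmitate, with a median of -0.23 in both. Mphosph8, a reader of methylated histone H3 in the HUSH silencing complex, had log2 fold changes of -0.38 and -0.44. Setdb2, a histone methyltransferase, had -0.41 and -0.32, Parp2 (a poly(ADP-ribose) polymerase of strand break repair) -0.33 and -0.32, and Apex1 (the main abasic site endonuclease) -0.30 and -0.31. Chd8, a chromatin remodeller, averaged 2943 ± 235 normalised counts in KO_C and 3452 ± 196 in WT_C, and 2733 ± 101 in KO_PA and 3280.0 ± 138 in WT_PA (SD, n = 5 each). Supt16, a subunit of the histone chaperone FACT, had 2107, 2087, 2102, 2119 and 2095 in KO_PA, against 2301, 2196, 2334, 2431 and 2421 in WT_PA. The Supt16 values of KO_PA lay within a narrow band below the lowest WT_PA library.

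Genes of adhesion, matrix and cytoskeleton included the gene with the smallest authors' p with palmitate. Mmp14 (chr14:54431612-54445364), which cleaves fibrillar collagen and activates pro-Mmp2, had 3750.0, 3314, 3380.2, 3063 and 3495 normalised counts in KO_C, against 4599, 4490.4, 4624, 4346 and 4387 in WT_C. It had 3073, 2951, 2865, 3070.1 and 3093 in KO_PA, against 4464, 4156, 4351, 4455 and 4299 in WT_PA. All KO libraries were lower, and the log2 fold changes were -0.40 (SE 0.05) and -0.53 (SE 0.03). Bmp1, the procollagen C-proteinase, had -0.33 and -0.40, and Dlg5, a scaffold of cell polarity, -0.34 and -0.38. Lmo7, an actin-binding protein of adherens junctions, had 2252, 2238, 2213, 2149.9 and 2019 in KO_C, against 2762, 2805, 2601, 2598 and 2567 in WT_C. With palmitate it had 2439.9, 2498, 2515, 2373 and 2467 in KO_PA, against 3038, 3029, 2983, 2989 and 2999 in WT_PA. Of the 30 genes in this list 17 were listed, 10 lower and 2 higher untreated, and 14 lower and 3 higher with palmitate. The higher ones were Dpysl2 and the galectin gene Lgals3 in both conditions and Sorbs3, a vinculin-binding adaptor, with palmitate. The share lower over all listed chromosome 14 genes was 94.3% untreated and 93.6% with palmitate.

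Of 29 receptors, kinases and transcription factors in a further list, 13 were listed. Untreated 10 were lower and 2 higher, and with palmitate 11 lower and 1 higher, with a median of -0.19 in both. All listed chromosome 14 genes together were lower in 94.3% untreated and 93.6% with palmitate. Thrb (chr14:17660261-18038090), the thyroid hormone receptor isoform that prevails in liver, had 649, 636, 646, 652 and 613 normalised counts in KO_C, against 932, 918, 817, 885 and 861 in WT_C. It had 612, 580.5, 628, 653 and 654 in KO_PA, against 838, 876, 889, 952 and 916 in WT_PA. The groups were far apart, with log2 fold changes of -0.47 and -0.52. Hr (chr14:70552212-70573548), a corepressor of thyroid hormone receptors, had 458, 419, 454, 421 and 411 in KO_C, against 693, 661, 717, 696 and 657 in WT_C. It had 459, 474, 435, 547 and 455 in KO_PA, against 738, 715, 642, 699 and 772 in WT_PA, with log2 fold changes of -0.66 and -0.59. Milder values were found for the stress kinase gene Mapk8 (-0.17 and -0.18), the BMP receptor gene Bmpr1a (-0.18 and -0.17) and the death receptor gene Tnfrsf10b (-0.20 and -0.19). Of 9 secreted liver proteins in another list, only the chaperone clusterin (Clu) was listed, with palmitate, at -0.07.

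Tmtc4 (chr14:122918971-122984035), an endoplasmic reticulum protein of O-mannosylation, had the smallest authors' p of the untreated comparison. It had 1311, 1441, 1332, 1348 and 1452 normalised counts in KO_C, against 1942, 1999, 1905, 1947 and 2010.4 in WT_C. With palmitate it had 1338, 1297, 1184, 1278 and 1338 in KO_PA, against 1770.3, 1879, 1897, 1842 and 1925 in WT_PA. The log2 fold changes were -0.51 and -0.53, and an annotated gene on the other strand, 4930594M22Rik, shares exonic bases with it. At the high end of expression, Tpt1 averaged 81928 ± 2891 in KO_C and 90276 ± 4153 in WT_C, and 71989 ± 3004 in KO_PA and 77023 ± 2530.2 in WT_PA (SD, n = 5 each). The membrane protein gene Itm2b averaged 14675 ± 436 in KO_C and 16648 ± 775 in WT_C.

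Large reductions were rare and fell on genes with few reads. A log2 fold change of -1 or lower was found for 3 genes untreated (Carmil3, Sall2 and Stc1) and 6 with palmitate (Zfp503, Sall2, Nfatc4, Neil2, Stc1 and Pcdh9). Sall2 (chr14:52311172-52328762), a zinc finger transcription factor, had 32.2, 24.5, 43.9, 33.1 and 27.2 normalised counts in KO_C, against 95.5, 70.8, 78.8, 84.4 and 40.5 in WT_C (-1.20, SE 0.22). It had 37.8, 32.4, 37.7, 23.0 and 24.8 in KO_PA, against 74.9, 53.7, 71.1, 78.4 and 72.0 in WT_PA (-1.16, SE 0.16). The untreated groups overlapped through one low WT_C library, and the palmitate groups did not. Stc1 (chr14:69029238-69041804), the glycoprotein hormone stanniocalcin 1, had 0.975, 5.33, 11.2, 2.28 and 4.73 in KO_C, against 23.4, 8.17, 18.6, 20.1 and 18.3 in WT_C. It had 5.73, 5.23, 5.51, 3.44 and 0 in KO_PA, against 17.5, 26.4, 30.7, 27.5 and 14.9 in WT_PA. These rest on 23 reads in KO_C and 96 in WT_C, and 19 in KO_PA and 128 in WT_PA. Carmil3 rested on 11 reads in KO_C and 47 in WT_C, Zfp503 on 11 in KO_PA and 40 in WT_PA, Neil2 on 21 in KO_PA and 63 in WT_PA, and Pcdh9 on 15 in KO_PA and 57 in WT_PA.

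A small set of 17 genes was higher in KO in at least one condition. Acod1 (chr14:103046977-103056573), the enzyme that makes itaconate from cis-aconitate and is best known from activated macrophages, had 144, 148, 112, 92.4 and 132 normalised counts in KO_C, against 37.3, 49.0, 56.6, 28.8 and 40.5 in WT_C. It had 64.1, 50.2, 54.2, 55.1 and 35.1 in KO_PA, against 17.5, 28.3, 14.9, 11.3 and 11.4 in WT_PA. No KO library reached down to the WT range, and the log2 fold changes were 1.57 (SE 0.18) and 1.62 (SE 0.23). Olfm4 (chr14:79984081-80023139), a secreted olfactomedin, had 886, 841, 942, 668 and 853 in KO_C, against 583, 641, 704, 539.7 and 561 in WT_C. It had 696, 659.9, 713, 620.0 and 658 in KO_PA, against 490.2, 387, 422, 455 and 417 in WT_PA, so that the groups overlapped untreated and not with palmitate. Its exons overlap those of Gm6999 on the same strand. Dpysl2 (chr14:66802864-66868688), a tubulin-binding protein, had 450.4, 665, 559, 643 and 612 in KO_C, against 355, 464, 402, 467 and 402 in WT_C. It had 631, 626, 598, 666 and 686 in KO_PA, against 429, 455, 416, 416 and 435 in WT_PA, with log2 fold changes of 0.49 and 0.58.

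The first KO_C library, which stood apart over all genes, was the lowest of its group for several of the higher genes. Smim4, a small mitochondrial protein, had 214 normalised counts in that library and 392, 405, 407 and 423 in the other KO_C libraries, against 250.0, 238, 239, 289 and 254 in WT_C. Without it the untreated log2 fold change was 0.68 in place of 0.53. Gm7324 had 34.1 there and 81.0, 59.3, 95.8 and 88.6 in the other KO_C libraries, against 31.2, 32.7, 29.7, 48.9 and 42.5 in WT_C, and its value without that library was 1.13 in place of 0.95. For Dpysl2 the value without it was 0.57, for Olfm4 0.45 and for Acod1 1.51. With palmitate Smim4 had 322, 370.2, 354, 336 and 400.2 in KO_PA, against 276, 237, 266, 205 and 210.2 in WT_PA, and Gm7324 had 69.9, 81.6, 69.8, 64.3 and 86.6 in KO_PA, against 36.0, 30.1, 27.2, 31.5 and 28.6 in WT_PA. Both were above WT_PA in all 5 KO_PA libraries, and Gm7324 overlaps Gm17208 on the same strand.

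The other higher genes had smaller differences or fewer reads. Nr1d2, the nuclear receptor Rev-erb beta of the circadian clock, had 868, 957, 869, 814 and 815 normalised counts in KO_C, against 667, 806, 689, 687 and 745 in WT_C. It had 1023, 917, 962, 803 and 844 in KO_PA, against 794, 854, 826, 731 and 841 in WT_PA, where the groups overlapped. Sncg, a synuclein, had 22.9, 20.9, 33.1, 34.4 and 26.8 in KO_PA, against 14.6, 16.0, 13.2, 14.5 and 13.7 in WT_PA. The potassium channel gene Kcnk5 (0.27 and 0.37) and the galectin gene Lgals3 (0.20 and 0.16) were listed as higher in both conditions, as was Comtd1. Xkr6 (0.82) and the growth factor signalling inhibitor Spry2 (0.31) were listed untreated, and Sorbs3 (0.41), Rtraf (0.18) and the epoxide hydrolase gene Ephx2 (0.13) with palmitate.

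**Figure D4:**
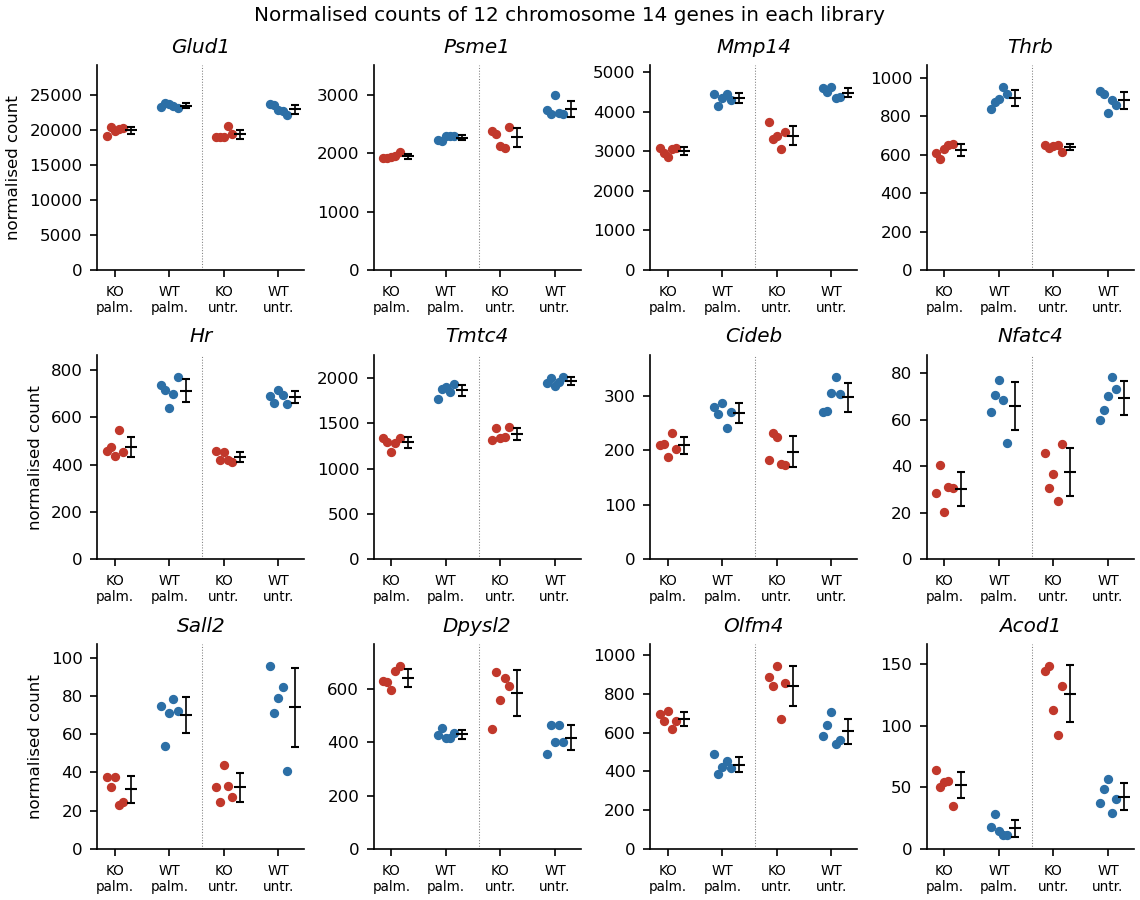
Each panel gives the normalised counts of 1 gene in the 20 libraries, with KO in red and WT in blue, one point per library, and bars for the mean ± SD of 5 libraries; palmitate groups are left of the dotted line and untreated groups right of it, each pair scaled within its own comparison. Glud1, Mmp14, Thrb, Hr and Tmtc4 are lower in KO without overlap, and Acod1 is higher.

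Properties of the genes other than their direction made little difference to the size of the reduction. With genes split in 3 by expression level, the medians for low, middle and high were -0.28, -0.23 and -0.23 untreated, and -0.27, -0.23 and -0.21 with palmitate. Genes on the plus strand had medians of -0.25 and -0.24 and genes on the minus strand -0.23 and -0.22. Split by length, the long, middle and short genes had medians of -0.26, -0.23 and -0.24 untreated and -0.24, -0.23 and -0.24 with palmitate. The higher genes were mostly short, 8 of 11 untreated and 12 of 15 with palmitate being in the shortest of 3 length classes. Exons of 140 genes overlapped no other annotated gene, and these had 99 lower and 7 higher members with a median of -0.23 untreated. The 92 genes overlapping a gene on the other strand had 71 lower and 2 higher with a median of -0.27, and the 26 overlapping one on the same strand 17 lower and 2 higher with a median of -0.26.

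In the authors' deposited tables the largest adjusted p-values inside it belonged to Spry2 (0.0480), Esd (0.0461) and Hmbox1 (0.0437) untreated and to Tgds (0.0494), Usp54 (0.0485) and Pibf1 (0.0418) with palmitate. Of these 6, Spry2 and Usp54 were higher in KO and the other 4 lower. At the other end stood Tmtc4 with 2.66e-29 untreated and Mmp14 with 2.57e-61 with palmitate. Genes outside the threshold are not in the genotype tables, and apart from 11 chosen by palmitate they were not analysed here.

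In genes listed in both conditions the genotype difference was of similar size with and without palmitate. The 2 genotype comparisons share no library, but a gene had to pass in both to be counted here. The agreement in sign and size is therefore drawn from the values that chose the genes and is no separate support. Of 12 genes with values in libraries that their listing did not use, given below, 9 had the same sign there. Of the listed genes, 177 were in both, 91.7% of the untreated and 75.0% of the palmitate list, and each had the same sign in both, 168 lower and 9 higher. On other chromosomes 1659 of 1660 genes listed in both also kept their sign. Over these 177 genes Pearson's r between the untreated and the palmitate log2 fold changes was 0.961 and Spearman's rho 0.827. Among the 156 of them with mild reductions in both r was 0.740. The median absolute difference between the conditions was 0.04.

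The change of the genotype difference with palmitate was fitted over all 20 libraries, and 0 of 189 chromosome 14 genes passed an adjusted p of 0.05 (edgeR's quasi-likelihood test, Benjamini-Hochberg over 2993 genes, of which 0.0% passed). DESeq2's Wald test also called 0 of these 189. Of the 189, 177 were listed for genotype in both conditions and the other 12 for palmitate in both genotypes. Most genes listed for genotype in 1 condition only (16 untreated and 59 with palmitate) lacked counts in the other condition. They could not be fitted, so the result does not cover them. The smallest adjusted p among the 189 was 0.588 in edgeR. At an unadjusted p under 0.05 there were 14 genes (7.41%), beside 5.75% of all genes fitted. The median change was 0.00, with quartiles of -0.04 and 0.04, beside a median standard error of 0.069. Among the 14, the mitotic phosphatase regulator gene Cdca2 had a change of -0.48, Atg14 0.20, Mmp14 -0.13, and Pck2, the mitochondrial phosphoenolpyruvate carboxykinase, -0.12. None of the 14 passed after adjustment.

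Palmitate against untreated cells was not used by the rule, but it shares its libraries with the genotype comparisons that chose the genes. In KO cells 20 of the 252 genes (7.94%) changed with palmitate, 12 higher and 8 lower (edgeR, adjusted p under 0.05), against 7.56% of all genes tested. In WT cells 48 genes (19.0%) changed, 28 higher and 20 lower, against 14.6% of all genes tested. The split turned with the scaling: with size factors of DESeq2 it was 4 higher and 15 lower in KO and 17 higher and 20 lower in WT, and with TMM factors 7 and 15 in KO and 20 and 20 in WT. The median log2 fold change of all genes fitted was 0.16 in KO and 0.12 in WT with the authors' scaling, and 0.08 and 0.06 with size factors of DESeq2. Without KO_PA replicate 2, 13 genes changed in KO, and the 12 higher genes came to 7 without KO_PA replicate 2, 3 or 5 or without KO_C replicate 3. The 8 lower ones came to 14 without KO_C replicate 4.

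Among the larger palmitate responses were those of Acod1, of Sncg in KO cells and of some genes of the cell cycle. Cdca2 had 221, 251, 231, 191 and 279.9 normalised counts in KO_PA and 120.4, 112, 104, 178 and 124 in KO_C (log2 fold change 0.89, SE 0.14, edgeR adjusted p 0.00121). It had 301, 321, 329, 332 and 356 in WT_PA and 132, 105, 118, 157 and 124 in WT_C (1.36, SE 0.10, edgeR adjusted p 2.4e-08). Palmitate libraries were above untreated ones without overlap in both genotypes. Acod1 had 61.3, 48.1, 51.9, 52.8 and 33.6 in KO_PA and 132, 136, 103, 84.6 and 122 in KO_C (-1.22, SE 0.17, edgeR adjusted p 0.000311). It had 19.1, 30.9, 16.3, 12.4 and 12.5 in WT_PA and 38.9, 51.2, 59.1, 30.1 and 42.3 in WT_C (-1.28, SE 0.25, edgeR adjusted p 0.00167). Acod1 fell with palmitate in both genotypes, and the palmitate and untreated libraries of KO did not overlap, while those of WT overlapped in the range of 30.1 to 30.9. Sncg rose by 0.91 on the log2 scale in KO (SE 0.26, edgeR adjusted p 0.0479), with 21.9, 20.1, 31.7, 33.0 and 25.7 in KO_PA and 22.3, 8.78, 12.2, 10.4 and 16.3 in KO_C. Its groups overlapped through KO_C replicate 1. The mitotic spindle gene Dlgap5 rose by 0.72 in KO and 0.91 in WT on the log2 scale (edgeR adjusted p 0.000362 and 2.18e-08).

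Smaller palmitate changes passed in both genotypes for genes of several roles. Lmo7 rose by 0.24 in KO and 0.24 in WT (edgeR adjusted p 0.000502 and 2.12e-05), and Pck2 by 0.21 in KO and 0.33 in WT (edgeR adjusted p 0.00155 and 2.75e-06). Clu rose by 0.15 in KO and 0.27 in WT (edgeR adjusted p 0.0296 and 5.62e-06). The focal adhesion gene Vcl fell by 0.25 in KO and 0.27 in WT (edgeR adjusted p 0.0105 and 1.79e-05), and the lysyl oxidase-like gene Loxl2 fell by 0.35 in KO and 0.27 in WT (edgeR adjusted p 0.00552 and 0.00015). Wdhd1, a replication factor, had 0.37 in KO with an edgeR adjusted p of 0.0869 and rose by 0.71 in WT (edgeR adjusted p 6.72e-06). Olfm4 had -0.26 in KO with an edgeR adjusted p of 0.0601 and fell by 0.41 in WT (edgeR adjusted p 0.00111). The difference in palmitate response between the genotypes did not pass for any of these genes.

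The authors themselves listed 35 of the 252 genes for palmitate in KO cells and 50 in WT cells, beside 10.2% and 15.8% of all genes they tested, and 30 were in both lists.

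**Figure D5:**
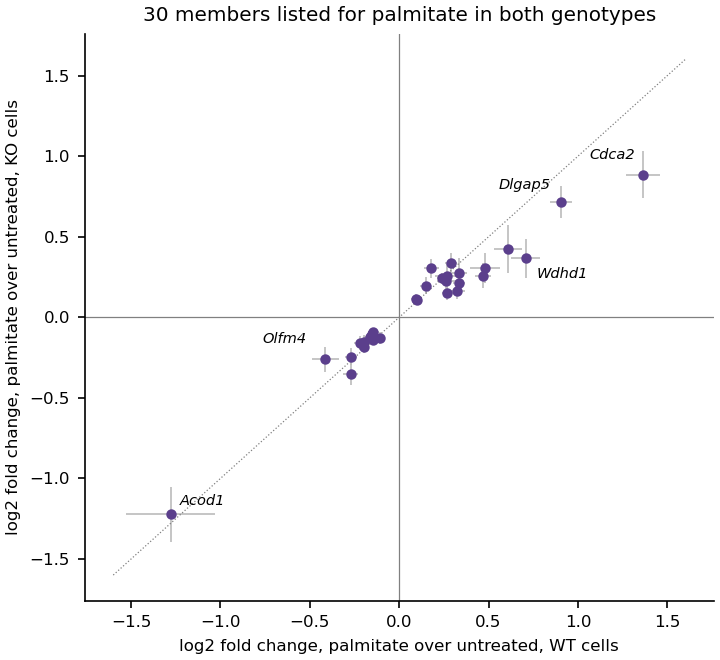
Each point is 1 of 30 chromosome 14 genes listed by the authors for palmitate in both genotypes, with its log2 fold change of palmitate over untreated in KO cells on the vertical and in WT cells on the horizontal axis; bars are standard errors and the dotted line marks equal values. Cdca2 (0.89 in KO and 1.36 in WT) and Acod1 (-1.22 and -1.28) are at the ends, and every point has the same sign in both.

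The genotype difference could also be described in genes chosen by palmitate and not by genotype. Of the genes listed for palmitate in both genotypes, 41 were protein-coding chromosome 14 genes. The log2 fold change of KO over WT, averaged over both conditions, was below 0 for 32 of them (78.0%). Its median was -0.12, with quartiles of -0.21 and -0.01. Of 902 such genes on other chromosomes 346 (38.4%) were lower, with a median of 0.03. On chromosome 14, Wdhd1, Ska3, Esco2, Clu and Cdca2, counted as lower, were higher in KO untreated, at 0.05 to 0.19. Fam213a, Cdkn3 and Pbk, counted as higher, were lower in KO with palmitate, at -0.11 to -0.03. Of the 41, 30 are among the 252 genes above. Of the 11 others, 5 were lower, and among the 6 higher was the topoisomerase gene Top2b, at 0.05.

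For 12 of the 252 genes, all of them also listed for palmitate in both genotypes, values were at hand in libraries that their genotype listing did not use. Of the 12, 9 were lower there as in the listing. Loxl2, listed with palmitate, had a log2 fold change of -0.16 in untreated cells (SE 0.06, edgeR adjusted p 0.0173); the other 11 did not pass, beside 80.6% of all genes in that fit untreated and 79.5% with palmitate, which were themselves mostly chosen for genotype. Clu, Wdhd1 and Cdca2, also listed lower with palmitate, had untreated values of 0.05, 0.10 and 0.19. The median over the 10 genes listed with palmitate was -0.04 and over Acox2 and Esd, listed untreated, -0.07.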

How the data were processed

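Values came from 4 tables the authors deposited, 1 for each pair of groups, which hold only genes with an adjusted p below 0.05. Each gives read counts per gene, normalised counts (a signal: the count divided by 1 size factor per library, set within the table by the authors), FPKM, gene length, and the log2 fold change, p-value and adjusted p-value of the authors' test, per the file headers. The submitters' processing notes name FastQC 0.11.9, HISAT2, featureCounts 1.5.0-p3, DESeq2 and the mm10 build; neither the annotation nor the strandedness of the counting was found in these notes. Levels and SDs are of normalised counts, which are comparable within a table. Members matched GENCODE M21 for annotation, and promoters came from RefSeq.

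Log2 fold changes and standard errors were refitted with edgeR 4.0.16 (quasi-likelihood, robust, authors' size factors) on the deposited counts in R 4.3.3. For palmitate, p-values were adjusted by Benjamini-Hochberg over the number of genes the authors tested; the change of the genotype difference was fitted in 1 model of 20 libraries over 2993 genes whose counts are known in every library. The listed genes are a selected set, so spread shared across genes was estimated from them alone. The fits were tested on simulated counts with known changes. Members, gene lists and tests were chosen with earlier results of these data known. Genes were named by rule: the highest and lowest in each 10 Mb window and table, the neighbours of Ripk3, the largest palmitate calls and the 2 most abundant of each list; other list genes named beside these (among them Timm23, Btd, Irf9, Rnf31, Dhrs4, Mphosph8, Setdb2, Parp2, Apex1, Bmp1 and Dlg5) were chosen after their values were seen. Alternatives were TMM and DESeq2 size factors, DESeq2's Wald test (DESeq2 1.42.0), log2(FPKM + 1), a mean count of at least 10, a length of at least 1000 bases, a replicate block and leaving out each library.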

Additional observations from a re-analysis of the deposited data

Results flagged for a closer look

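Among 168 groups of 5 libraries checked for the named chromosome 14 genes, 5 (2.98%) held a library far from the other 4; chance gives about 1 in 20. Vcl had 5851 normalised counts in KO_C replicate 5, with the next at 7172. Smim4 had 214.5 in KO_C replicate 1, with the next at 392. Chd8 had 2909.5 in KO_PA replicate 1, with the next at 2716. Psme1 had 3002 in WT_C replicate 3, with the next at 2752. Dis3, an exosome ribonuclease, had 1083 in WT_C replicate 3, with the next at 1181.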

How the results depend on the processing

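The untreated median log2 fold change was -0.22 with TMM factors, -0.28 with DESeq2 size factors computed without chromosome 14 and -0.21 on log2(FPKM + 1), and the palmitate median was -0.26 and -0.20 under the last 2 of these. Leaving out a library gave -0.25 to -0.24 untreated and -0.24 to -0.23 with palmitate. The counts of 11 higher and 182 lower untreated and 15 higher and 221 lower with palmitate were the same under every scaling and with each library left out. Relative to the median of all listed genes, protein-coding or not, the members lay at -0.34 and -0.29 under the count scalings. With palmitate they lay at -0.19 with a mean count of at least 10, where the median of all listed genes was -0.04 in place of 0.06. Over listed protein-coding genes alone that median was -0.12 untreated and -0.10 with palmitate, so these offsets depend on the set. No named member's log2 fold change and no window median was reversed. For palmitate in KO cells DESeq2's Wald test called 32 members in place of 20, and leaving out a library gave 13 to 29; in WT cells leaving out a library gave 41 to 48. Interaction calls stayed at 0 of the 189 members fitted. Leaving out a library or changing the scaling gave 30 to 35 lower among the 41 palmitate-chosen genes. The cause of these shifts was not tested. A replicate block gave 24 members in KO, 48 in WT and 0 for the interaction; same-numbered libraries deviated with correlations of -0.28 to 0.39, so the numbers were not taken as pairs. Low counts limit the large reductions, which rest on 11 to 63 reads for Carmil3, Zfp503, Neil2 and Pcdh9. Chromosome 14 genes listed for genotype in neither condition were not analysed here, apart from 11 chosen by palmitate.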
